A study of Mus musculus with 24 samples.

Results

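The genes described are 9 mouse homeobox genes, *Tlx1*, *Hoxa3*, *Hoxa5*, *Hoxa7*, *Hoxa9*, *Hoxa10*, *Meis1*, *Pbx2* and *Pbx3*, out of 18193 genes that have a probe set of their own on the array. They were chosen by name, and each is read by its main probe set, the one with the highest mean signal over the 24 arrays. These 9 genes have 20 probe sets of the 45037 that are not controls of the array. The *Hoxa* members lie on chromosome 6 between 52169059 and 52240854 (GRCm38.p6), *Meis1* on chromosome 11, *Pbx2* on 17, *Pbx3* on 2 and *Tlx1* on 19. Thymocytes of 4 pools of *IgHμ-TLX1Tg Prkdc Scid/Scid* mice (TLX1) and of 4 pools of *Prkdc Scid/Scid* mice (control) were sorted as CD4- CD8- cells by CD44 and CD25 into DN1 (CD44+ CD25-), DN2 (CD44+ CD25+) and DN3 (CD44- CD25+), and every pool gave 1 Affymetrix array per stage. A pool held about 2 to 5 mice of 1 sex, aged 6 to 8 weeks by the labels (the study's methods state a range that starts younger), on an outbred ICR background. By the methods, the transgenic parents were of a CD1 background, and the *Prkdc Scid* parents were CB17 ICR mice bred onto ICR. Both genotypes carry the *Prkdc Scid* mutation, which prevents V(D)J recombination and stops thymocytes at DN3, so no group has normal T cell development. The transgene is driven by the immunoglobulin heavy chain μ promoter, a B cell promoter that is leaky in thymocytes. The labels call the transgene *HOX11*, and also state that the cells were negative for B220 and CD3.

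Hox proteins bind DNA through a homeodomain, and *Hoxa* genes are used by blood progenitors until their expression falls as cells commit to a lineage. Meis and Pbx proteins belong to the TALE class of homeodomain proteins and bind DNA together with Hox proteins, which raises their selectivity. *Hoxa9* and *Meis1* are known as a leukemia-promoting pair, and TLX1, also named HOX11, is a homeodomain protein outside the Hox clusters that drives human T cell leukemia when it is expressed in thymocytes.

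The values are the authors' MAS5 signals, on a linear scale with a 2% trimmed mean of 150 on every array, and the median signal of the arrays lay between 15.1 and 24.3. Signals under 1 were set to 1 before log2. An array's background was taken as the 95th percentile of 43 probe sets of olfactory receptor genes, which lay between 7.46 and 19.5 with a median of 12.8, and a group is called above background where at least 3 of its 4 arrays are. Probe sets were ranked by mean log2 signal, and the upper 60% (27022) were tested with limma, and a call is a Benjamini-Hochberg adjusted p under 0.05 over all of them. The main probe sets of 7 of the 9 genes passed this filter. Those of *Meis1* and *Hoxa10* did not, and their tests are from a fit over all 45037 probe sets. The 95% intervals of all 9 genes are also from that fit. Unless stated, SEs and adjusted p of probe sets that passed the filter are from the filtered fit. *Cd44* signal was 892 to 1913 at DN1, 80.3 to 153 at DN2 and 9.52 to 29.0 at DN3 over both genotypes. *Il2ra*, which encodes CD25, was 488 to 1171 at DN1, 4270 to 5518 at DN2 and 4323 to 5541 at DN3. It was thus lowest at DN1 but above background there on all arrays. Control pool 3 and TLX1 pool 2, which by the study's sort data held the most cells outside the gates, stood apart at DN1. *Rag1*, a recombinase gene of later thymocytes, read 3193 in TLX1 pool 2 and 3769 in control pool 3 at DN1, against 35.5 to 199 in the other 6 pools.

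*Pbx3*, which encodes a TALE cofactor of Hox proteins, fell between DN1 and DN2 in both genotypes. In bulk arrays of a sorted fraction, fewer cells of a type and less RNA per cell cannot be told apart. TLX1 pools 1 to 4 had *Pbx3* signals of 144.9, 152.3, 168.5 and 140.6 at DN1, 17.7, 17.8, 9.55 and 21.9 at DN2, then 10.7, 15.7, 12.5 and 11.3 at DN3. Control pools 1 to 4 had 133.0, 186.9, 250.9 and 177.0 at DN1, 10.3, 14.1, 24.1 and 19.3 at DN2, then 6.05, 11.9, 108.1 and 3.01 at DN3. Every DN1 array read above every DN2 and DN3 array of its genotype, and the arrays after DN1 read 3.01 to 24.1 apart from control pool 3 at DN3. At DN2, 3 TLX1 and 4 control arrays were above background, and at DN3 1 of 4 in each genotype, so that most DN3 values only bound the level. The log2 difference of DN2 against DN1 was -3.24 (SE 0.24, adjusted p = 3.76e-05) in TLX1 pools and -3.50 (SE 0.70, adjusted p = 0.00587) in control pools. DN3 against DN1 gave -3.61 (SE 0.24, adjusted p = 2.05e-05) in TLX1 pools and -3.88 (SE 0.70, adjusted p = 0.00353) in control pools. Between DN2 and DN3 the log2 differences were -0.37 in TLX1 and -0.38 in control pools, and neither passed the test (adjusted p = 0.372 and 0.879). Without control pool 3, DN3 against DN1 in control pools was -4.77 (adjusted p = 6.94e-04). The second *Pbx3* probe set fell too, by 2.44 on the log2 scale in TLX1 pools (adjusted p = 0.00396) and by 2.80 in control pools (adjusted p = 9.32e-04) between DN1 and DN2. It also read higher in control pool 3 at DN3, at 56.3 against 8.22 to 10.8 in the other control pools.

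**Figure D1:**
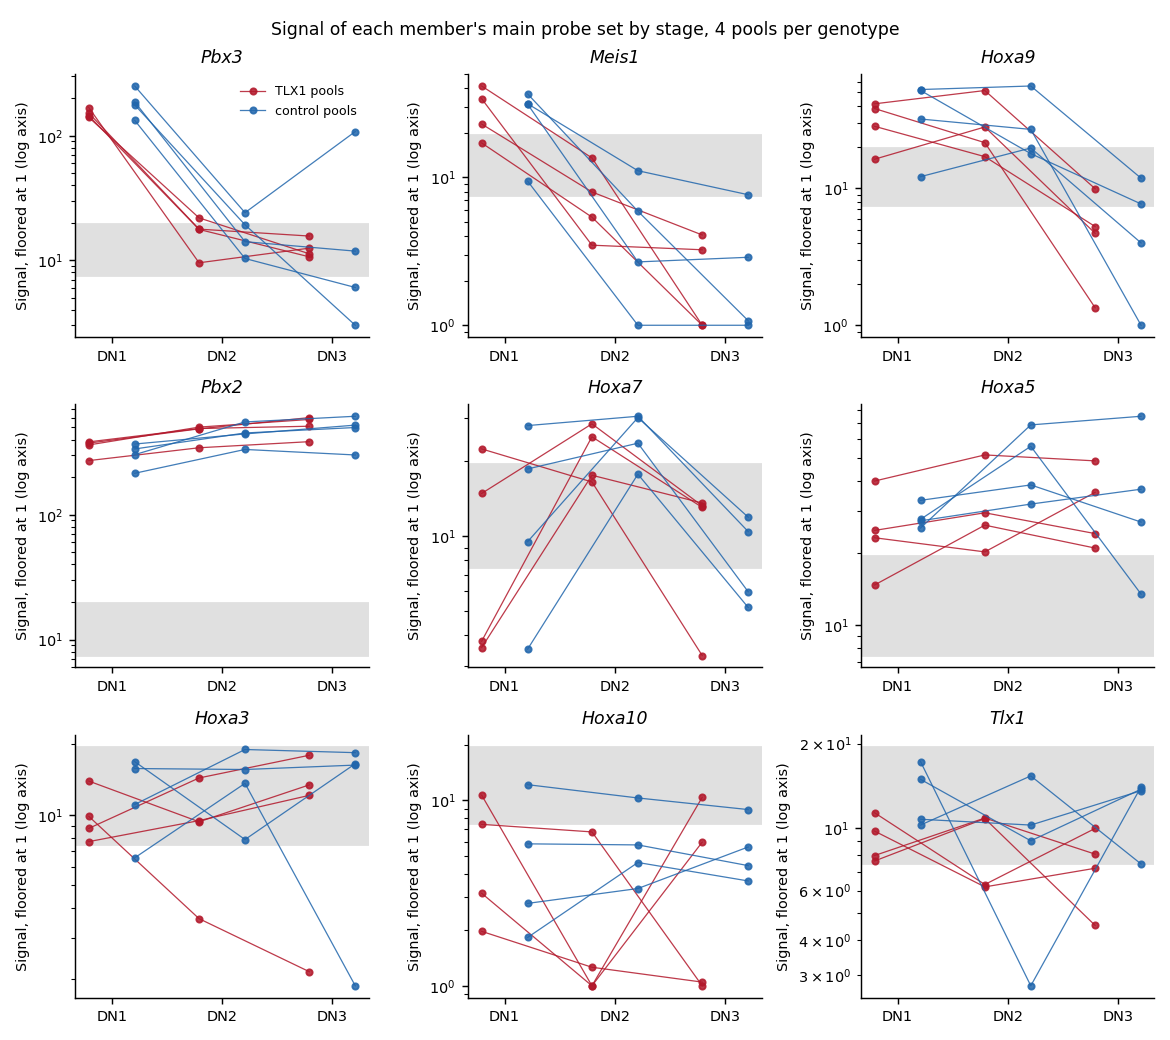
Signal of the main probe set of each gene (log axis, signals under 1 drawn at 1) at DN1, DN2 and DN3. Each point is 1 array and each line 1 pool, with the 4 TLX1 pools in red to the left of the 4 control pools in blue, and the grey band spans the background of the 24 arrays (7.46 to 19.5). *Pbx3*, *Meis1* and *Hoxa9* lie lower at DN3 than at DN1, *Pbx2* lies higher, and *Hoxa10*, *Hoxa3* and *Tlx1* stay within or below the band on all arrays.

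*Meis1*, a TALE cofactor that partners Hoxa9 in hematopoietic progenitors, was above background only at DN1. In TLX1 pools 1 to 4 it read 34.1, 17.1, 41.6 and 23.0 at DN1, 3.48, 5.39, 13.6 and 7.98 at DN2, then 3.24, 0.792, 0.990 and 4.08 at DN3. Control pools 1 to 4 read 36.7, 31.3, 9.45 and 31.5 at DN1, 5.91, 2.68, 0.792 and 11.1 at DN2, then 1.07, 2.88, 0.912 and 7.64 at DN3. All 4 TLX1 pools and all but pool 3 of the control pools were above background at DN1, 1 of the 8 was at DN2 (TLX1 pool 3), and none was at DN3. In the fit over all probe sets, DN2 against DN1 gave a log2 difference of -2.03 in TLX1 pools (adjusted p = 0.0359) and of -2.73 in control pools (adjusted p = 0.0101). DN3 against DN1 gave -3.84 in TLX1 pools (adjusted p = 0.00279) and -3.46 in control pools (adjusted p = 0.00372). The arrays below background only bound the level. *Meis1* was at least 2.18-fold higher at DN1 than at DN2 in control pools, and it was at least 2.07-fold higher at DN1 than at DN3 in TLX1 pools and at least 1.62-fold higher in control pools. The DN2 level in TLX1 pools was measured on 1 of 4 arrays. Such a bound sets the mean at DN1 against the mean, over the dimmer arrays, of the higher of the background and the signal. In control pools the DN1 mean takes in pool 3 (9.45), itself below background, so these bounds are not strict there. A second *Meis1* probe set passed the filter, and its DN2 against DN1 difference was -1.66 (SE 0.34, adjusted p = 0.00446) in TLX1 pools and -1.43 (SE 0.28, adjusted p = 0.00547) in control pools. The third *Meis1* probe set, which was above background on at most 2 arrays of a group, gave -0.52 and -0.25 for the same step (adjusted p = 0.166 and 0.711). The DN2 step of the main probe set in TLX1 pools was not called without TLX1 pool 1 (adjusted p = 0.135), pool 2 (0.106) or pool 4 (0.0848), nor that of control pools without pool 2 (0.0821).

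*Hoxa9*, the cluster gene best known in progenitor growth and myeloid leukemia, was above background at DN1 and DN2 and below it at DN3. TLX1 pools 1 to 4 had *Hoxa9* signals of 38.2, 16.3, 28.3 and 41.3 at DN1, 21.5, 28.0, 17.0 and 51.7 at DN2, then 1.34, 4.69, 5.26 and 9.92 at DN3. Control pools 1 to 4 had 32.02, 51.8, 12.2 and 52.6 at DN1, 26.9, 17.9, 19.7 and 55.8 at DN2, then 0.433, 7.68, 3.99 and 11.8 at DN3. All DN3 arrays were below background and below every DN1 and DN2 array of the same genotype. The DN2 against DN1 difference was -0.11 (95% interval -1.27 to 1.04) in TLX1 pools and -0.25 (-1.66 to 1.15) in control pools, and it passed the test in neither. DN3 against DN2 gave -2.66 in TLX1 pools (SE 0.47, adjusted p = 0.0374) and -2.63 in control pools (SE 0.58, adjusted p = 0.156), so the step was called in TLX1 pools and not in control pools. The difference between these steps was not called (adjusted p = 1.00). DN3 against DN1 was called in both, at -2.78 (SE 0.47, adjusted p = 0.00205) in TLX1 pools and -2.88 (SE 0.58, adjusted p = 0.00603) in control pools. *Hoxa9* was at least 2.21-fold higher at DN1 than at DN3 in TLX1 pools. In control pools the same bound was 2.15-fold, but it is not strict, as the DN1 mean takes in pool 3 (12.2), itself below background. The DN3 against DN2 call in TLX1 pools was lost without any 1 of the 4 TLX1 pools (adjusted p = 0.101 to 0.136) and over all probe sets (adjusted p = 0.109). A second *Hoxa9* probe set read within background at every stage, with 1 or 2 arrays of each group above it, and its log2 differences lay between -0.46 and 0.29.

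*Pbx2*, another Pbx cofactor and a gene expressed in most tissues, rose between DN1 and DN2. TLX1 pools 1 to 4 had *Pbx2* signals of 362.4, 383.5, 374.9 and 271.5 at DN1, 503.4, 490.4, 487.8 and 344.0 at DN2, then 579.9, 511.8, 600.1 and 385.0 at DN3. Control pools 1 to 4 had 336.5, 303.0, 368.5 and 214.9 at DN1, 451.8, 553.8, 444.2 and 333.5 at DN2, then 499.8, 615.0, 522.3 and 301.2 at DN3. Pool 4 read lowest in both genotypes at every stage, so that DN1 and DN2 overlapped, while all 8 pools read higher at DN2 than at DN1. The log2 difference of DN2 against DN1 was 0.39 in TLX1 pools (SE 0.08, adjusted p = 0.00623) and 0.55 in control pools (SE 0.13, adjusted p = 0.0135). DN3 against DN1 gave 0.57 in TLX1 pools (SE 0.08, adjusted p = 0.00104) and 0.65 in control pools (SE 0.13, adjusted p = 0.00671). A second *Pbx2* probe set gave 0.32 (adjusted p = 0.0453) and 0.34 (adjusted p = 0.115) for DN2 against DN1 in TLX1 and control pools. The dimmest *Pbx2* probe set gave 0.42 (adjusted p = 0.0463) and 0.40 (adjusted p = 0.431) for the same step. Its signal in control pool 3 was 113.8 at DN1 and 54.9 at DN2. DN3 against DN1 in TLX1 pools was 0.15 (SE 0.15, adjusted p = 0.442) on the dimmest probe set and was not called. It was 0.48 (adjusted p = 0.00946) on the brighter one. The call of the main probe set at DN2 was lost without TLX1 pool 1 (adjusted p = 0.0580) and, in control pools, without pool 1 (0.0677), pool 2 (0.0729) or pool 4 (0.0796).

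The windows upstream of *Hoxa9* and *Pbx2*, which moved in opposite directions over the stages, are shown because they differ in base composition. Each holds the 250 bases before the RefSeq start of the gene in GRCm38.p6, written 5′ to 3′ on the strand of the gene, with CpG dinucleotides in capitals. That of *Hoxa9* is chr6:52227371-52227620, on the minus strand, and overlaps the annotated gene *Gm52902*. That of *Pbx2* is chr17:34592009-34592258, on the plus strand, and overlaps no other annotated gene.
Hoxa9: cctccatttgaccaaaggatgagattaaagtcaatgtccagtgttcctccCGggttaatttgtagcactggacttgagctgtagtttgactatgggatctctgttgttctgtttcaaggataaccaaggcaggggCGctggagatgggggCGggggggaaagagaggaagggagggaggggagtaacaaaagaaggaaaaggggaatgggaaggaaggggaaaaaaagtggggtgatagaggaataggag
Pbx2: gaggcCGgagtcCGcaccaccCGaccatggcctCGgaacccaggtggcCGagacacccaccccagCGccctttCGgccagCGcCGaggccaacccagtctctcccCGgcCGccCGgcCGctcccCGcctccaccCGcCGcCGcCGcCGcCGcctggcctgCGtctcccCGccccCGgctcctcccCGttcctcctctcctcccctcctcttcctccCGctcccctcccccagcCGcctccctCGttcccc
The *Hoxa9* window has 3 CpG and 49.6% G or C, and the *Pbx2* window has 27 CpG and 77.6%. Of 32851 such windows, 29.0% hold fewer CpG than that of *Hoxa9* and 91.4% fewer than that of *Pbx2*. The letters TGACAG (a core of Meis sites), TGATNNAT (joint Pbx and Hox sites) and TAATTA (homeodomain sites) were searched on both strands. None is in these 2 windows, and they occur in 15.9%, 7.68% and 4.84% of all windows.

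*Hoxa7* was above background on all arrays at DN2 and on few at the other stages. In TLX1 pools 1 to 4 it read 3.56, 3.78, 22.45 and 14.9 at DN1, 17.6, 25.1, 16.5 and 28.3 at DN2, then 13.6, 13.1, 3.31 and 13.25 at DN3. Control pools 1 to 4 read 18.65, 9.51, 3.51 and 27.9 at DN1, 23.7, 30.0, 17.8 and 30.4 at DN2, then 5.98, 11.9, 5.17 and 10.4 at DN3. Within each genotype every DN2 array was above every DN3 array, and DN1 arrays spread over the whole range. No step was called on the signals as deposited. DN3 against DN2 was -1.18 (SE 0.69, adjusted p = 0.333) in TLX1 pools and -1.66 (SE 0.40, adjusted p = 0.204) in control pools, and DN2 against DN1 was 1.38 (adjusted p = 0.131) and 1.12 (adjusted p = 0.0599). In control pools DN2 against DN1 was called after quantile normalization (1.39, adjusted p = 0.0198) and after centring arrays on their medians (adjusted p = 0.0142), and in TLX1 pools after the centring (1.78, adjusted p = 0.0498). Without TLX1 pool 3, the highest at DN1, DN2 against DN1 in TLX1 pools was 1.99 (adjusted p = 0.0158).

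*Hoxa5* was above background in every group, on 3 arrays of the control DN3 group and on all 4 of each other group. TLX1 pools read 14.7 to 40.1 at DN1, 20.3 to 51.6 at DN2 and 21.0 to 48.7 at DN3, and control pools read 25.5 to 33.3, 32.1 to 69.0 and 13.5 to 75.0. The groups overlapped between stages, and no step of the main probe set was called, with log2 differences of 0.31 in TLX1 and 0.72 in control pools for DN2 against DN1 (adjusted p = 0.230 and 0.205). A second *Hoxa5* probe set gave 2.25 for that step in TLX1 pools (SE 0.63, adjusted p = 0.0187) and 1.35 in control pools (SE 0.56, adjusted p = 0.0933). It was above background on 1 of 4 TLX1 and 2 of 4 control arrays at DN1, and on all 8 arrays at DN2. The step of the main probe set in TLX1 pools was 0.64 (adjusted p = 0.0137) after quantile normalization and 0.72 (adjusted p = 0.00801) after centring arrays on their medians.

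*Hoxa3*, *Hoxa10* and *Tlx1* were near background. *Hoxa3* read 2.15 to 17.9 in TLX1 pools and 1.87 to 19.0 in control pools, and was above background in 1 group only, control DN2. *Hoxa10* was below background on all 24 arrays, between 0.796 and 10.7 in TLX1 pools and between 1.82 and 12.2 in control pools. *Tlx1*, the mouse counterpart of the transgene, read 4.51 to 11.4 in TLX1 pools and 2.75 to 17.3 in control pools, and was above background in no group. This probe set is designed on the mouse gene and may not read a human transgene, so it does not check the genotype labels. No stage step of these 3 genes was called.

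Over the members, 1 of the 7 tested genes was higher (*Pbx2*) and 1 lower (*Pbx3*) at DN2 than at DN1 in TLX1 pools, where 23.5% of all tested probe sets were higher and 25.6% lower. The same counts in control pools were 1 and 1, against 18.3% higher and 19.3% lower. DN3 against DN2 gave 0 higher and 1 lower (*Hoxa9*) in TLX1 pools, against 1.14% and 0.855% of all probe sets, and 0 and 0 in control pools, against 0.0962% and 0.292%. At DN3 against DN1, 1 gene was higher and 2 were lower (*Pbx3* and *Hoxa9*) in both genotypes, against 23.9% and 19.7% of all probe sets in TLX1 pools and 18.5% and 17.2% in control pools. At DN2 against DN1, the fit over all probe sets called the same members in both genotypes. Of the 9 genes, 1 was higher (*Pbx2*) and 2 were lower (*Pbx3* and *Meis1*). Of all probe sets, 11.7% were higher and 15.7% lower in TLX1 pools, and 8.01% and 10.6% in control pools. At DN3 against DN1 that fit gave 1 higher and 3 lower (*Pbx3*, *Meis1* and *Hoxa9*) in both genotypes. Of all probe sets, 11.6% were then higher and 11.7% lower in TLX1 pools, and 8.15% and 9.61% in control pools. The counts of these few genes were not tested against the shares of all probe sets. The median log2 difference of the main probe sets of all 9 genes at DN2 against DN1 was -0.14 in TLX1 and 0.18 in control pools, beside -0.16 and -0.12 over all 45037 probe sets.

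**Figure D2:**
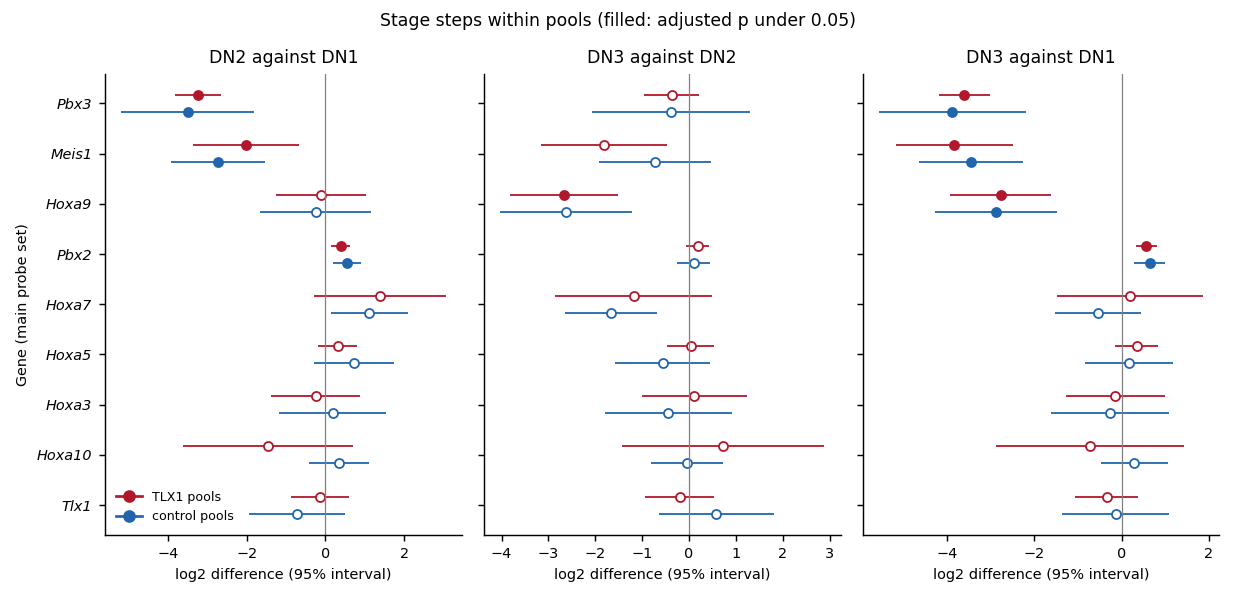
Log2 difference between stages within pools for the main probe set of each gene, with its 95% interval from the fit over all probe sets. TLX1 pools (red) are drawn above control pools (blue), and filled points have an adjusted p under 0.05. This adjusted p is from the fit over all probe sets for *Meis1* and *Hoxa10*, and from the filtered fit for the other genes. *Pbx3* and *Meis1* have filled points left of 0 at DN2 against DN1, *Hoxa9* at DN3 against DN1, and *Pbx2* right of 0 at both, as between -3.24 and 0.39 in TLX1 pools at DN2.

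Several measures moved along with these stage steps, and whether any of them caused the steps was not tested. The summed signal of 6 NK and innate lymphoid markers was 15640 to 23910 in TLX1 and 12110 to 28760 in control pools at DN1, with all 6 above background. It was 3562 to 4534 in TLX1 and 4036 to 5214 in control pools at DN3, with 2 and 3 of the 6 above background. The 9 myeloid and dendritic markers summed to 4116 to 11880 in TLX1 and 3656 to 6025 in control pools at DN1, and to 612 to 905 in TLX1 and 602 to 1004 in control pools at DN3. The 5 mast cell and basophil markers summed to 860 to 2096 in TLX1 and 697 to 1678 in control pools at DN1, all 5 above background. At DN2 they gave 1430 to 1683 and 1234 to 2212, with 2 of 5 above it. At DN3 they gave 294 to 395 and 293 to 612, with 1 of 5 above it. The 7 T lineage markers were above background in every group. The 7 thymic epithelium markers, most of whose signal was *Epcam*, summed to 188 to 236 in TLX1 and 160.2 to 204.5 in control pools at DN1, with 4 of 7 above background in both, and to 844 to 1049 in TLX1 and 718 to 1213 in control pools at DN3, with 2 and 4 of 7 above it. The 9 mesenchyme and endothelium markers summed to 310.0 to 409.9 in TLX1 and 243 to 412 in control pools at DN1, with 4 of 9 above background in both, and to 1050 to 2471 in TLX1 and 718 to 1771 in control pools at DN3, mostly *Pdgfrb*, with 2 of 9 above it in both. Of these 2 lists, *Foxn1*, *Krt14*, *Psmb11*, *Pdgfra*, *Col1a1*, *Col3a1* and *Dcn* were above background in no group. *Ccl25* and *Pecam1* were above it on all 4 arrays of every group, and *Krt5* and *Krt8* in every group but TLX1 DN3. *Cdh5* and *Kdr* were above it at DN1 only, in both genotypes, and *Col1a2* in TLX1 pools at DN2 only. In every group, 2 of 6 B lineage markers were above it. At DN1, the pools with high *Rag1*, TLX1 pool 2 and control pool 3, had the lowest *Hoxa9* and *Meis1* signals of their genotype. *Pbx3* did not follow this. It was highest of the control pools in pool 3 (250.9), and TLX1 pool 2 (152.3) was below only TLX1 pool 3 (168.5). On the second *Pbx3* probe set, TLX1 pool 2 (92.6) and control pool 3 (117.3) were the highest of their genotype. Leaving out both pools, *Pbx2*, *Pbx3* and *Hoxa9* kept their calls at DN3 against DN1 in both genotypes, with 3 members called in each. The 3'/5' index of RNA quality, which averages over *Actb* and *Gapdh* the log2 excess of the 3' over the 5' probe set of the array's own controls, stood at 0.0572 ± 0.0747 at DN1, 0.216 ± 0.107 at DN2 and 0.184 ± 0.106 at DN3 in TLX1 pools, and 0.257 ± 0.161, 0.518 ± 0.328 and 0.529 ± 0.0298 in control pools (SD, n = 4 each). With the index as a covariate, 0 members were called at DN2 against DN1 in TLX1 pools and 1 (*Pbx3*) at DN3 against DN1. The log2 differences of DN2 against DN1 were then -3.99 for *Pbx3* (SE 0.80, adjusted p = 0.0626), 0.60 for *Pbx2* (SE 0.29, adjusted p = 0.358) and -4.74 for *Meis1* (SE 1.78, adjusted p = 0.343), each farther from 0 than without the index and with a larger SE. At DN3 against DN1 it was -3.32 for *Hoxa9* (SE 1.39, adjusted p = 0.214) and 0.74 for *Pbx2* (SE 0.24, adjusted p = 0.128). In control pools the same fits called 2 and 3 members. The share of all tested probe sets called was not counted with the index or without the 2 pools. These member counts therefore have no share to be set against.

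TLX1 and control thymocytes were compared at each stage to see whether the transgene went with a change in its own gene family and cofactors. None of the 7 tested members was called at DN1, DN2 or DN3 (smallest adjusted p = 1.00, 1.00 and 0.814), where 0.0037%, 0.0037% and 0.0185% of all tested probe sets were called. At an unadjusted p under 0.05, 0 members passed at DN1, 0 at DN2 and 1 at DN3 (*Tlx1*), against 1.72%, 3.53% and 6.02% of all probe sets. The methods' unpaired test gave 0 members at each stage at that threshold. *Tlx1* read 4.51, 8.09, 7.20 and 9.98 in TLX1 pools at DN3, against 13.8, 13.6, 7.46 and 14.0 in control pools, a log2 difference of -0.73 (SE 0.30, adjusted p = 0.814). These groups overlapped, and 1 of the 8 arrays was above background.

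The intervals show what sizes the 4 against 4 pools leave possible. For *Pbx2* the log2 difference was 0.20 (95% interval -0.35 to 0.76) at DN1, 0.04 (-0.46 to 0.54) at DN2 and 0.13 (-0.49 to 0.74) at DN3. For *Pbx3* it was -0.27 (-0.81 to 0.27) at DN1, -0.01 (-0.83 to 0.81) at DN2 and 0.00353 (-2.33 to 2.34) at DN3, where control pool 3 widens it. For *Hoxa9* it was -0.13 (-1.36 to 1.09) at DN1 and 0.00154 (-1.08 to 1.09) at DN2. *Hoxa5* gave -0.64 (-1.47 to 0.19) at DN2, with 20.3 to 51.6 in TLX1 pools and 32.1 to 69.0 in control pools. *Meis1* gave 0.18 (-0.97 to 1.32) at DN1. Each of these intervals includes 0. At DN2 *Hoxa10*, which was below background on all arrays, gave -1.69 (-3.26 to -0.11, adjusted p = 1.00 over all probe sets), from 0.854 to 6.76 in TLX1 pools and 3.35 to 10.3 in control pools. At DN3 the intervals of *Hoxa9*, *Meis1* and *Hoxa3* span over 3 log2 units at signals near background. The 3'/5' index differed between genotypes at the same time, at 0.184 ± 0.106 in TLX1 and 0.529 ± 0.0298 in control pools at DN3 (SD, n = 4 each, exact permutation test, two-sided, p = 0.0286, the smallest that 4 against 4 allow, 0.0857 adjusted over the 3 stages). Its ranges at DN3 did not overlap, at 0.101 to 0.339 in TLX1 and 0.501 to 0.572 in control pools. At that stage the index and the genotype therefore cannot be told apart. With the index as a covariate, no member was called at any stage.

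**Figure D3:**
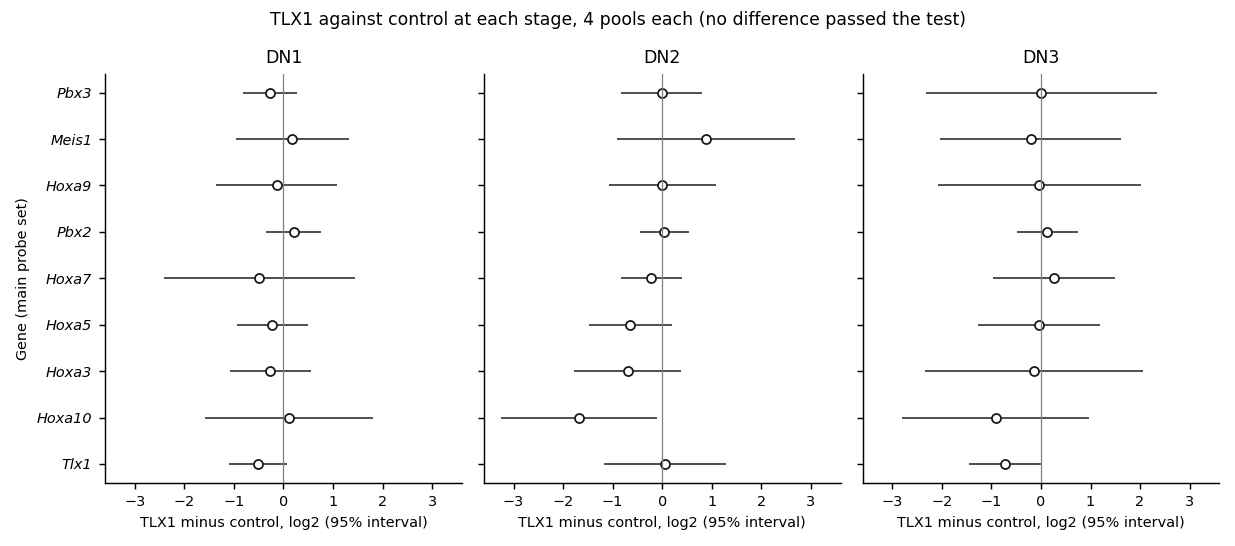
Log2 difference of TLX1 minus control for the main probe set of each gene at DN1, DN2 and DN3 (4 TLX1 and 4 control pools per stage). The 95% intervals are from the fit over all probe sets. No adjusted p was under 0.05, and the intervals of *Pbx2* stay within -0.49 and 0.76 at all 3 stages.

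The stage steps of TLX1 and control pools were set against each other in interaction tests over all 24 arrays. None of the 7 tested members was called for DN2 against DN1, DN3 against DN2 or DN3 against DN1, and 0% of all tested probe sets were. The smallest unadjusted p of a member was 0.287, 0.227 and 0.397. The log2 differences between genotypes of the step lay between -0.43 and 0.58, -0.78 and 0.60, and -0.21 and 0.74 in these 3 tests for these 7 members. In the fit over all probe sets, *Hoxa10* gave -1.80, 0.77 and -1.03, and *Meis1* gave 0.71, -1.09 and -0.39. Neither was called, and both vary near background at most stages.

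Other genes of the same families were mostly dim. *Pknox1*, a TALE gene, was not, at 291 to 416 in TLX1 and 276 to 555 in control pools over the stages. Of 6 other *Hoxa* genes 4 were measured, and 0 passed the filter. Of 28 *Hoxb*, *Hoxc* and *Hoxd* genes 24 were measured and 1 passed the filter. This gene, *Hoxb4*, was above background on all 4 arrays of every group and was called in no comparison. *Meis3*, a TALE gene, was 16.3 to 61.5 in TLX1 and 49.7 to 75.3 in control pools at DN1, and 5.32 to 17.0 in TLX1 and 4.31 to 20.6 in control pools at DN2, where 1 and 2 of 4 arrays were above background. Its DN2 against DN1 difference was -2.23 (SE 0.42, adjusted p = 0.00323) in TLX1 and -2.63 (SE 0.30, adjusted p = 4.58e-04) in control pools. At DN3 *Meis3* read 13.2 to 21.8 in TLX1 and 7.73 to 26.1 in control pools, with 4 and 2 of 4 arrays above background. *Pbx4*, a Pbx gene, was called higher at DN3 than at DN1 in TLX1 (adjusted p = 0.0427) and control pools (adjusted p = 0.00495), with 0 arrays above background at DN1 and all 8 at DN3. *Tlx3*, the relative of *Tlx1* that is also activated in human T cell leukemia, was called lower at DN3 than at DN1 in control pools (adjusted p = 0.00979), with 3 of 4 arrays above background at DN1 and 0 at DN3.

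Genes known to act with or on the Hox genes moved in both directions. Of 18 chromatin and elongation regulators that act on Hox genes, among them trithorax and polycomb group members, 13 rose and 1 fell between DN1 and DN2 in TLX1 pools, and 9 rose and 0 fell in control pools. Of all tested probe sets, 23.5% rose and 25.6% fell in TLX1 pools and 18.3% rose and 19.3% fell in control pools. The median log2 difference of these 18 genes was 0.47 in TLX1 and 0.33 in control pools, beside -0.06 and -0.04 over all tested probe sets. *Men1* (menin, a partner of the Kmt2a methyltransferase) rose by 0.94 (SE 0.09, adjusted p = 1.09e-04) in TLX1 and 0.74 (SE 0.16, adjusted p = 0.00790) in control pools. *Mllt3*, a subunit of elongation complexes, rose by 0.92 (SE 0.10, adjusted p = 2.21e-04) in TLX1 and 0.78 (SE 0.12, adjusted p = 0.00210) in control pools. *Kmt2a*, a histone methyltransferase that maintains Hox expression, was the 1 gene of the list called between DN2 and DN3, at 0.40 (SE 0.08, adjusted p = 0.0475) in TLX1 pools.

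Of 10 progenitor genes known as partners or targets of Hoxa9 or Meis1, 9 were tested, and 3 rose and 4 fell between DN1 and DN3 in TLX1 pools, while 3 rose and 5 fell in control pools. Of all tested probe sets, 23.9% rose and 19.7% fell in TLX1 pools and 18.5% rose and 17.2% fell in control pools at this step. *Erg*, an Ets factor, rose by 3.12 (SE 0.23, adjusted p = 3.29e-05) in TLX1 and 3.99 (SE 0.27, adjusted p = 3.96e-05) in control pools. *Cd34*, a progenitor surface protein, was 38.1 to 66.0 in TLX1 and 24.4 to 54.0 in control pools at DN1, 64.55 to 108.0 and 60.2 to 156.5 at DN2, and 1.44 to 6.84 and 4.26 to 11.6 at DN3. It was called lower at DN3 than at DN2 in TLX1 (adjusted p = 0.00206) and control pools (adjusted p = 0.0142), with 0 arrays above background at DN3. *Nr4a3*, an orphan nuclear receptor gene and 1 of 7 other genes linked to Tlx1, fell by 3.12 (SE 0.32, adjusted p = 1.84e-04) in TLX1 and by 3.06 (SE 0.62, adjusted p = 0.00613) in control pools between DN1 and DN2. *Tle1*, a Groucho corepressor, rose by 0.91 (adjusted p = 0.00921) in TLX1 and 1.06 (adjusted p = 0.00133) in control pools at that step. No gene of these lists was called between TLX1 and control pools at any stage.

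Among the main probe sets of 12050 genes that passed the filter, those most like each member over the 24 log2 signals are given as a description. All arrays share the stage steps and the pools, so high values are common, and nothing of shared control follows from them. *Hoxa9* was most like *Ptger3* (r = 0.913), *Cx3cr1* (0.908) and *Havcr2* (0.904). *Pbx3* was most like *Tspan32* (r = 0.951), *Umad1* (0.951) and *Ikzf3* (0.948), and *Pbx2* most like *Scarb1* (0.951), *Usp11* (0.936) and *Fam114a2* (0.919). For *Hoxa7* the first was *Mef2c* (r = 0.747), followed by *Creg1* and *Cpsf3*, and for *Hoxa5* it was *Ctla2a* (r = 0.763), followed by *Rbbp7* and *Palmd*. *Tlx1* (*Zpbp2*, *Cdhr5* and *Arv1*, first r = 0.678) and *Hoxa3* (*Prkar1b*, *Cetn4* and *Mertk*, first r = 0.731) vary near background.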

How the data were processed

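For each of the 24 arrays the authors deposited linear MAS5 intensity values. The submitters' processing notes name Affymetrix Expression Console as the software. The flags and the further normalization that the methods describe are not used here. Of 45101 probe sets, 64 array controls served only for the 3'/5' index, and 34945 of the rest match 1 gene in the platform annotation, 932 several and 9160 none. Signals were floored at 1 and log2 transformed without scaling. Limma 3.58.1 (R 4.3.3, data.table version 1.17.8) was fitted per probe set to the 60% with the highest mean over all arrays (mean signal of at least 9.02). TLX1 and control pools were compared unpaired at each stage. Stage steps used the 12 arrays of a genotype with the pool as a fixed block, since the 3 stages of a pool come from the same mice (same-pool deviations correlated at 0.177 to 0.626, over 0.1 in 24 of 24 pairs). Interactions used all 24 arrays with the pool as a block. The stage steps share DN1, DN2 or DN3 arrays. The scripts were tested on simulated data. Sequences and positions are from RefSeq tables of GRCm38.p6, where 8 of the 9 genes have a promoter window.

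All 9 members were fitted in every comparison, though not every log2 difference is given. Of each other list, up to 4 genes with the smallest p among those called could be named, and the 3 genes most like each member are given. *Pknox1* and *Hoxb4* are named for their signal instead. The members and lists were chosen with earlier results of these data known. Alternatives were other scalings (quantile, or the median of each array), testing all probe sets or the upper 40%, adding 32 before log2, the next probe set, leaving out each pool or both pools with many cells outside the gates, random and other blocks, sex, the 3'/5' index and the methods' unpaired test. Pools are separate groups of mice, and 4 pools per group limit the precision.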

Additional observations from a re-analysis of the deposited data

Results flagged for a closer look

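In 7 of 54 groups of 4 pools, 1 pool stood apart from the other 3, with a gap to its nearest neighbour that, as a share of the group's log2 range, passed the 95% critical value of Dixon's test. Chance flags about 1 in 20 groups at this level. At DN3, the gap took 0.949 of the range for *Tlx1* in control pool 3 (7.46, against 13.6 to 14.0 in the other control pools). It took 0.947 for *Hoxa3* in control pool 1 (1.87) and 0.971 for *Hoxa7* in TLX1 pool 3 (3.31), all at or below background. For *Hoxa10* at DN2 it took 0.879, with TLX1 pool 2 the highest at 6.76. *Meis1* at DN1 read 9.45 in control pool 3, a gap of 0.882 of the range, and this pool also had high *Rag1* at that stage. *Pbx2* was lowest in TLX1 pool 4 at DN1 (271.5, a gap of 0.836) and at DN2 (344.0, a gap of 0.917).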

How the results depend on the processing

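Over 108 results and 1527 alternative values, 0 called results reversed, and 174 values changed sign, 0 of them called. No member was called between TLX1 and control pools, or in an interaction, under any alternative run. Apart from the fit over all probe sets, the share of all probe sets called was not counted under these alternatives. At DN2 against DN1 in TLX1 pools, 2 members were called, against 4 after median centring (*Hoxa5* and *Hoxa7* added), 3 after quantile normalization, 3 with the next probe set, 1 with the stricter filter, 1 with no replicate block, 0 with the 3'/5' index, and 1 to 3 when a pool was left out. At DN3 against DN2 in TLX1 pools, 1 was called, against 0 with the next probe set, no filter, the stricter filter, no replicate block, the index or without both pools with many cells outside the gates, and 0 without any 1 pool. At DN3 against DN1 in TLX1 pools 3 were called, against 4 after quantile normalization or median centring (*Hoxa5* at 0.50 and 0.54), 2 with the next probe set (*Hoxa9* at -0.0051), 1 with the stricter filter and 1 with the index. With the index the log2 differences of the members called without it were -3.99 and 0.60 (*Pbx3*, *Pbx2*) at DN2 against DN1, -4.22, -3.32 and 0.74 (*Pbx3*, *Hoxa9*, *Pbx2*) at DN3 against DN1 and -2.53 (*Hoxa9*) at DN3 against DN2, with larger SEs than without it. In control pools, DN2 against DN1 gave 2, against 3 after quantile normalization or median centring (*Hoxa7* added), 1 with the next probe set, the stricter filter and no replicate block, and 1 to 2 when a pool was left out. DN3 against DN2 gave 0, against 1 (*Hoxa9*, -2.63, adjusted p = 0.0370) in the fit of all arrays with the pool as a block. DN3 against DN1 gave 3, against 2 with the next probe set, 2 with no replicate block and 1 with the stricter filter. Only *Pbx2* remained tested under that filter, and the cause of the other changes was not tested. *Pbx3* at DN3 against DN1 stayed called under all 13 alternatives in both genotypes, with -4.22 to -2.04 in TLX1 and -4.77 to -2.01 in control pools. For a stage step, leaving out both pools with many cells outside the gates drops only the pool of that genotype. It is then the same fit as leaving out that pool, and the counts of alternatives take in both. Replicate numbers were not used to pair TLX1 with control pools. Same-number pools correlated at -0.34 to 0.48, over 0.1 in 6 of 12 pairs. Those of number 4 gave 0.482, 0.402 and 0.365 at DN1, DN2 and DN3, and those of number 1 gave 0.127, 0.164 and 0.186. Numbers 2 and 3 gave -0.34 to 0.04. What the same-number pools share was not tested. With a replicate block, 0 members were called between TLX1 and control pools. Signals near background limit *Tlx1*, *Hoxa3*, *Hoxa10* every DN3 value of *Hoxa9* and *Meis1*, the DN2 values of *Meis1* and most DN3 values of *Pbx3*.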

Other observations

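*Hoxa4*, which lies in the *Hoxa* cluster and did not pass the filter, was picked out after its values were seen. It read 7.26, 14.1, 8.16 and 3.24 in TLX1 pools and 13.7, 13.75, 13.05 and 7.13 in control pools at DN2, with 1 and 3 of 4 arrays above background. At DN1 it read 0.174 to 4.80 in TLX1 pools and 0.355 to 2.01 in control pools, with 0 arrays above background. All control DN2 arrays lay above all control DN1 arrays, and no test of the main fit covers this gene.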
